A study of Mus musculus with 21 samples.

Results

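The genes described are Dazl, Ddx4, Sycp1, Sycp3, Mael, Stk31, Hormad1, Asz1, Slc25a31 and Tex101, 10 germline genes of the mouse. They were taken by symbol from the 31053 gene identifiers counted in each library of cultured mouse embryonic stem cells, and each is followed across the 7 culture groups of the study. Genes of this kind are known as targets of promoter methylation. The libraries measured RNA, and DNA methylation was not measured, so whether the promoters were methylated in these cells was not tested. All 10 genes had counts, in 8 to 21 of the 21 libraries, so they are called germline genes here and not silenced genes.

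Germline genes are kept off in most cells of the body. Their promoters are rich in CG dinucleotides, and in somatic cells many of them carry methylated cytosines laid down by DNMT3A, DNMT3B and the helper DNMT3L and copied by DNMT1 with UHRF1. A second layer of repression uses the PRC1.6 complex, in which E2F6 and the MGA and MAX pair bind the letters TCCCGC and CACGTG. In the embryo, primordial germ cells lose most DNA methylation, and genes of this class are then switched on ahead of meiosis. Mouse embryonic stem cells in 2i, a medium with inhibitors of MEK and GSK3, are known for low DNA methylation compared with cells in serum.

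The cells were E14Tg2a, a male line of the 129 strain in which 1 copy of Rex1 (Zfp42), a naive pluripotency gene, carries a destabilised green fluorescent protein. All 7 groups share this line and reporter. By the shared protocol, the cells were kept for a week in NDiff227 medium with the GSK3 inhibitor CHIR99021 (CH, 3 uM) and the MEK inhibitor PD0325901 (PD), and afterwards the inhibitors and the cytokine LIF, which signals through STAT3, were given and withdrawn in alternation. The groups have 3 libraries each and are labelled 2i+LIF PO, and 2i+LIF, CH+LIF and LIF at LP and at HP. The series' design names zero passage, a month and 2 months of culture. PO was read as zero passage, since it occurs in a single medium, and the labels do not spell out LP and HP. Nothing in the labels says that the 3 libraries of a group are separate cultures, so p-values measure the spread between these libraries, which may be technical.

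The 21 libraries held 1132126 to 3783043 counts assigned to genes, so a member with few counts has a wide error. Before scaling, 3 counts correspond to 0.793 to 2.65 per 1000000 gene counts. CPM, counts per 1000000 gene counts, are the counts divided by the library size after TMM scaling. On that scale 3 counts were 0.748 CPM in PO replicate 3 and 3.09 CPM in LIF HP replicate 3. A gene was called changed at an adjusted p under 0.05 in edgeR's quasi-likelihood test on counts, with Benjamini-Hochberg adjustment over the 10643 genes that passed a filter on low counts, and percentages of all tested genes called in the same comparison stand beside the members' counts. By their file names, the 18 libraries of the cultured groups came from 1 sequencing run and the 3 of PO from a different one, so PO and its run cannot be told apart, while contrasts among the cultured groups lie within a run. In 2 libraries a single class of RNA took a large share of counts: Gm42418 had 31.7% in 2i+LIF LP replicate 1, against at most 10.9% elsewhere, and mitochondrial genes had 39.1% in PO replicate 1, against at most 9.84% elsewhere. Dusp6, an ERK target that MEK inhibition lowers, went against some labels. It had 0, 1.23 and 0 CPM in the libraries labelled LIF HP, which name no MEK inhibitor, and 0.701, 34.4 and 26.3 CPM in replicates 1 to 3 labelled 2i+LIF LP, against 2.85 ± 0.753 CPM (SD, n = 3) in PO and 37.1 ± 5.75 CPM in CH+LIF HP. Groups are therefore named as labelled, and no direction below is ascribed to a medium.

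RefSeq promoter windows (build GRCm38.p6, the 250 bases before the annotated start) were found for all 10 genes, with 12 windows in all because Stk31 and Hormad1 have 2 each. The 4 shown are those of the 3 genes that differed among the cultured groups and of Slc25a31, the gene higher than PO in the most groups. They are written 5′ to 3′ in the gene's direction, with each CG, the dinucleotide that carries methylation, in capitals, and with the 16 bases of the Dazl and Slc25a31 windows that lie in a GENCODE exon left out. The letters are those of the reference strain, and the line studied is of another strain.
Dazl, chr17:50293637-50293870, minus strand: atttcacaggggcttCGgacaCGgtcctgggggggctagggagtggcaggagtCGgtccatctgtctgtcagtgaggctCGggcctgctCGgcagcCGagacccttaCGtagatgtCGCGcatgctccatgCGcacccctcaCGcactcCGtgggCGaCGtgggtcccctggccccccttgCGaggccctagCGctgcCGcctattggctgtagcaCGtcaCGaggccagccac
Stk31, chr6:49395289-49395538, plus strand: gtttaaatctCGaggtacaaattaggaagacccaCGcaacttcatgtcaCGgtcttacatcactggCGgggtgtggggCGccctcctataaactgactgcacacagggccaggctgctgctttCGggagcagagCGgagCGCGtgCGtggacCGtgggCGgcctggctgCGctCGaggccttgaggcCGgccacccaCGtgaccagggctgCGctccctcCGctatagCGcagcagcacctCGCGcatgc
Slc25a31, chr3:40708621-40708854, plus strand: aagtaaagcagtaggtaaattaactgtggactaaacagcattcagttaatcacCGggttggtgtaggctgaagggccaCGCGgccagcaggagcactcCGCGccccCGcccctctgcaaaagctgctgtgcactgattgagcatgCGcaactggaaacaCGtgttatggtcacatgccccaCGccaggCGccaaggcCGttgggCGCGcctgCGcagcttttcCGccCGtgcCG
Tex101, chr7:24672051-24672300, minus strand: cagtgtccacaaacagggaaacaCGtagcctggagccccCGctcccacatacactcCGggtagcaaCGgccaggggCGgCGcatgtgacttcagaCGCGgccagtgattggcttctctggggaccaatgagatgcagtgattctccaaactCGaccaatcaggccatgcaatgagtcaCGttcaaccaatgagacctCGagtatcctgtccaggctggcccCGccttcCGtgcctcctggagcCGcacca

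The promoter windows of the members ranged from 12 CG dinucleotides for Sycp3 to 31 for Ddx4. Dazl had 20, Stk31 had 21 and 26 in its 2 windows, Hormad1 had 19 in each, Mael and Slc25a31 had 18, Sycp1 had 17, Asz1 had 15 and Tex101 had 14. Over the 32851 windows of the table, the median was 6 and the quartiles were 2 and 16. The letters TCCCGC, searched on both strands, were in the windows of Ddx4, Sycp3, Mael and Hormad1, which is 4 of 10 members, and in 16.9% of all windows. The palindrome CACGTG was in 7 of 10 members (Ddx4, Sycp1, Sycp3, Mael, Stk31, Hormad1 and Slc25a31) and in 6.02% of all windows. In no member did matches of both motifs overlap. Stk31 carries CACGTG 55 bases before its first start and Slc25a31 93 bases before its start, which can be read in the sequences above as ccaCGtga and acaCGtgt, and Dazl, Asz1 and Tex101 have neither motif. A match is a description of letters and not a bound site. The Tex101 window lies inside the GENCODE gene, in an intron, because the GENCODE gene, read on the minus strand, begins at 24676675, upstream of the RefSeq start.

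**Figure D1:**
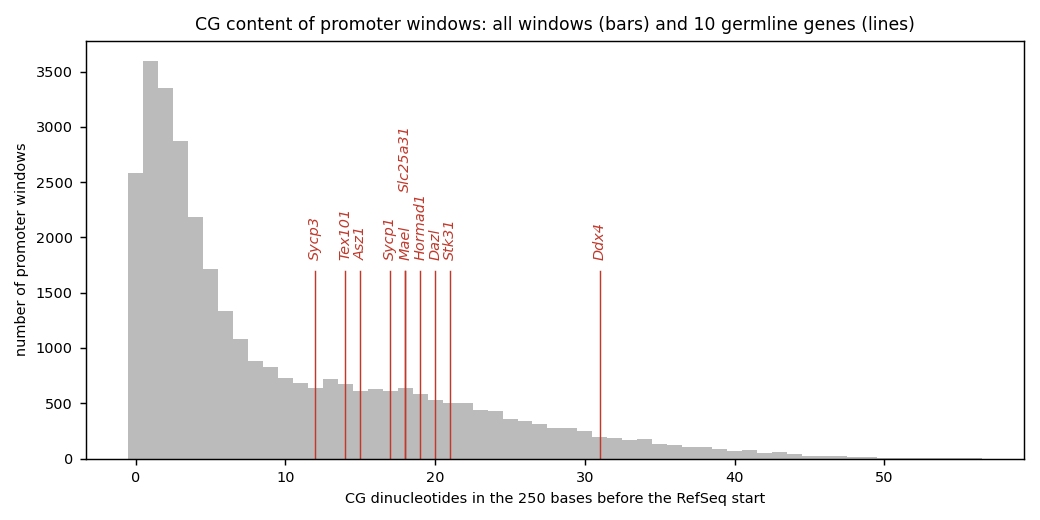
Number of CG dinucleotides in the 250 bases before the RefSeq start: grey bars count all 32851 windows, and each red line is 1 member (first window where there are 2). All 10 members lie above the median of 6, from 12 for Sycp3 to 31 for Ddx4. Of the 250 bases of the Ddx4 window, 165 lie in GENCODE exons.

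Per length of transcript, Sycp3 and Dazl were the highest members and Asz1 the lowest. The mean over the 21 libraries was 26.9 CPM per kilobase of exon for Sycp3, 24.6 for Dazl, 8.24 for Hormad1, 5.53 for Stk31, 2.20 for Slc25a31, 2.04 for Sycp1, 1.68 for Tex101, 1.53 for Ddx4, 1.35 for Mael and 0.320 for Asz1. The group labelled 2i+LIF HP had the highest mean of 7 of the 10 genes, and PO had the lowest mean of 5. When the groups were ordered by mean for each gene, the libraries of neighbouring groups overlapped in 57 of 60 neighbouring pairs, so most steps in these orders are within the spread. Filtering left 8 genes for testing; Mael (88 counts in all) and Asz1 (32 counts) were not tested. Tex101 reached the filter's 5.67 CPM in 4 libraries, 3 of them of 2i+LIF HP, and so passed through the group where it was high. Slc25a31 reached it in 7 libraries, of which 4 were of other groups.

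**Figure D2:**
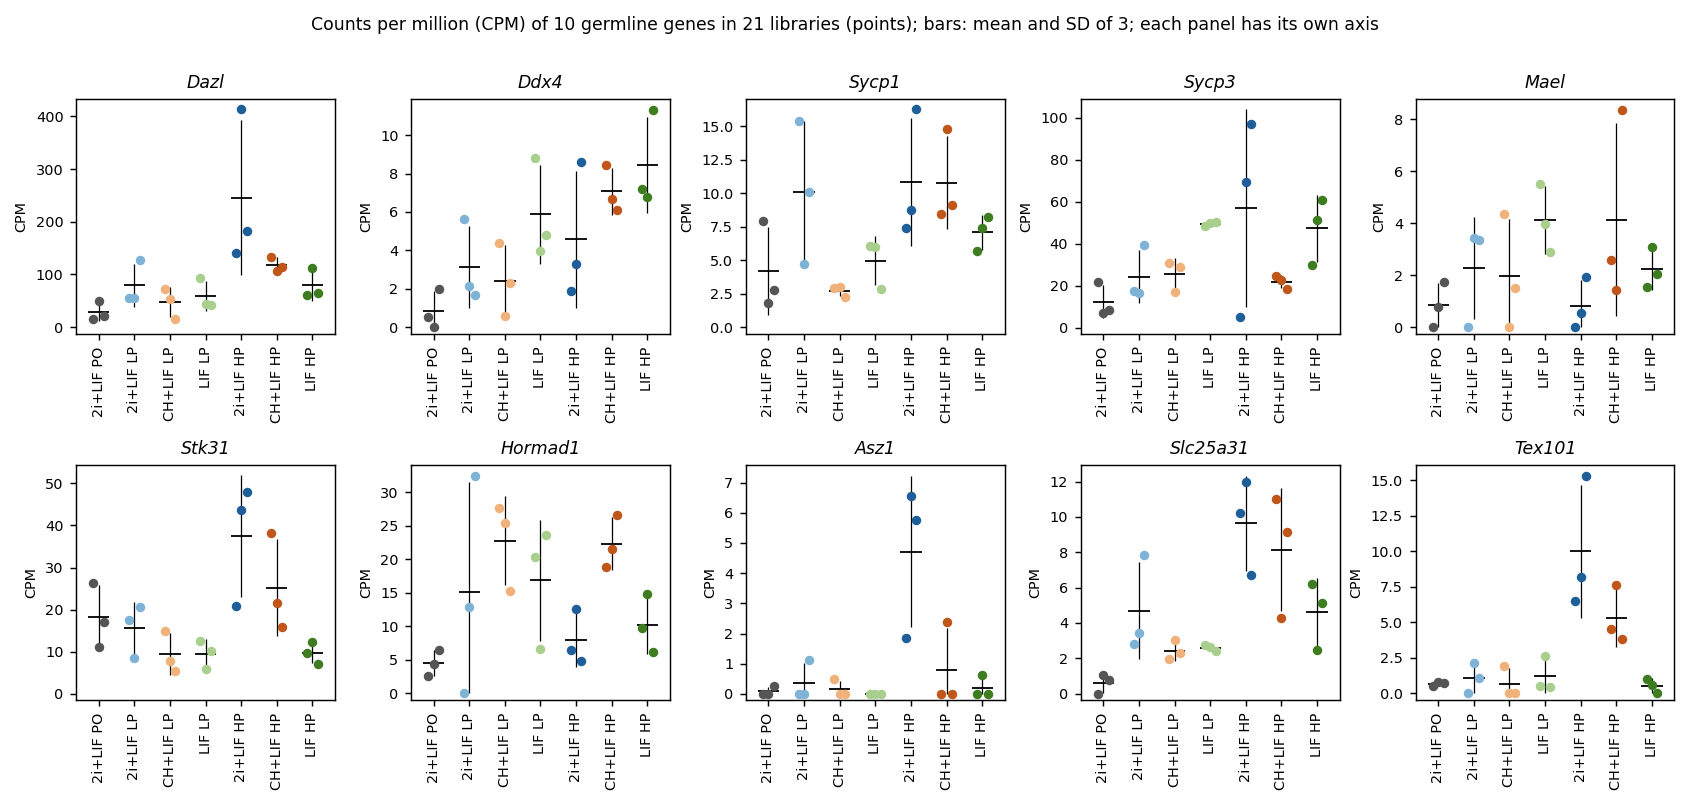
CPM of each gene in the 21 libraries (points), by group on the horizontal axis, with the mean and SD of 3 libraries as bars; every panel has its own vertical axis. Dazl reached 413 CPM in 2i+LIF HP replicate 2, Asz1 had counts in all 3 libraries of 2i+LIF HP alone, and Tex101 was highest in 2i+LIF HP.

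Dazl (ENSMUSG00000010592, chromosome 17, 50279395 to 50293636, minus strand, GRCm38 as for all positions) encodes an RNA-binding protein that promotes translation in germ cells and licenses them for gametogenesis. Its 3 libraries had 15.3, 48.9 and 21.9 CPM in PO. The 2i+LIF LP libraries had 55.4, 55.1 and 127 CPM, those of CH+LIF LP 73.2, 53.9 and 15.9 CPM and those of LIF LP 92.5, 44.5 and 42.3 CPM. At HP, 2i+LIF had 140, 413 and 182 CPM, CH+LIF had 134, 106 and 114 CPM and LIF had 60.8, 113 and 63.9 CPM. Every 2i+LIF HP library was above every library of the other 6 groups, and replicate 2 of that group, from 758 counts, stood far above its own replicates. The order of group means was 2i+LIF HP (245 CPM, with the 3 libraries given above), CH+LIF HP (118 ± 14.0, SD, n = 3), 2i+LIF LP (79.2 ± 41.4), LIF HP (79.1 ± 29.1), LIF LP (59.8 ± 28.4), CH+LIF LP (47.7 ± 29.1) and PO (28.7 ± 17.8). Apart from the first step, each neighbouring pair in this order overlapped. Dazl differed among the 6 cultured groups (edgeR, adjusted p = 0.0107). That call was lost without 2i+LIF HP replicate 2 (adjusted p = 0.131).

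Ddx4 (ENSMUSG00000021758, chromosome 13, 112598333 to 112652475, minus strand), the mouse Vasa homologue, is an RNA helicase of germ granules. It was at or near 0 in PO, with 1, 0 and 8 counts or 0.528, 0 and 1.99 CPM. Libraries of the cultured groups had 0.605 to 8.81 CPM at LP and 1.86 to 11.3 CPM at HP. The 3 LIF HP libraries had 7.21, 6.77 and 11.3 CPM and the 3 CH+LIF HP libraries 8.43, 6.68 and 6.09 CPM, and in both groups each library exceeded every PO library. In 2i+LIF HP, where Dazl was highest, Ddx4 had 1.86, 3.27 and 8.63 CPM, which overlapped PO. The group means ran from 8.44 ± 2.52 CPM in LIF HP through 7.07 ± 1.22 in CH+LIF HP, 5.87 ± 2.58 in LIF LP, 4.58 ± 3.57 in 2i+LIF HP, 3.15 ± 2.15 in 2i+LIF LP and 2.42 ± 1.88 in CH+LIF LP to 0.841 ± 1.03 in PO. Ddx4 did not pass the test among the cultured groups (edgeR, adjusted p = 0.478).

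Mael, Asz1 and Stk31 belong to the piRNA side of the germline programme. Mael (ENSMUSG00000040629, chromosome 1, 166201201 to 166238747, minus strand) encodes Maelstrom, a germ granule protein needed for transposon repression in the testis. It had 88 counts in all, and no library exceeded 8.38 CPM, the value of CH+LIF HP replicate 3. The 3 LIF LP libraries, with 5.51, 3.98 and 2.89 CPM, were all above the 3 PO libraries, with 0, 0.784 and 1.75 CPM. In 2i+LIF HP it had 0, 0.545 and 1.92 CPM from 3 counts, so Mael was among the lowest members in the group where 7 others had their highest mean.

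Asz1 (ENSMUSG00000010796, chromosome 6, 18050964 to 18109061, minus strand) encodes a germ cell protein with ankyrin repeats that acts at the mitochondrial surface in piRNA biogenesis. Of its 32 counts, 22 came from the 3 libraries of 2i+LIF HP, with 4, 12 and 6 counts or 1.86, 6.54 and 5.75 CPM. The 3 libraries of LIF LP had no counts, and PO had a single count. CH+LIF HP replicate 2 had 5 counts, or 2.38 CPM, while its other 2 replicates had none. Pooled over 3 libraries, 2i+LIF HP had 13.1 times the share of 2i+LIF LP, from 22 against 2 counts, with an exact 95% interval of 3.21 to 115. Against PO the ratio was 47.7 (7.72 to 1970, from 22 against 1 count). These ratios use library totals without TMM scaling. Their intervals cover counting error alone, and Asz1 was too low for the test across genes.

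Stk31 (ENSMUSG00000023403, chromosome 6, 49395604 to 49469501, plus strand) encodes a germ cell protein with a Tudor domain and a kinase-like domain. It was present in PO, with 26.4, 11.2 and 16.9 CPM. Values of 20.9, 43.6 and 47.9 CPM were found in 2i+LIF HP, and of 38.3, 21.5 and 16.0 CPM for CH+LIF HP. The 3 libraries of LIF HP had 9.79, 12.3 and 7.21 CPM, all below both of those groups. At LP the values were 17.5, 8.61 and 20.7 CPM in 2i+LIF, 15.0, 7.87 and 5.32 CPM in CH+LIF and 12.7, 5.98 and 10.1 CPM in LIF. The order of means was 2i+LIF HP (37.5 ± 14.5 CPM), CH+LIF HP (25.2 ± 11.6), PO (18.2 ± 7.64), 2i+LIF LP (15.6 ± 6.26), LIF HP (9.77 ± 2.55), LIF LP (9.58 ± 3.38) and CH+LIF LP (9.40 ± 5.03), and all neighbours overlapped. Stk31 differed among the 6 cultured groups (edgeR, adjusted p = 0.0116), a call kept under all 28 alternatives tried.

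The meiotic chromosome genes Sycp1, Sycp3 and Hormad1 had 3 different orders of groups. Sycp1 (ENSMUSG00000027855, chromosome 3, 102818499 to 102936100, minus strand) encodes the transverse filament of the synaptonemal complex, which zips homologous chromosomes together. It had 7.91, 1.83 and 2.74 CPM in PO, and 2.91, 3.03 and 2.28 CPM in CH+LIF LP, the group with the lowest mean (2.74 ± 0.402 CPM). At HP, the CH+LIF libraries had 8.43, 14.8 and 9.14 CPM, all above CH+LIF LP. The group means of 2i+LIF HP (10.8 ± 4.79), CH+LIF HP (10.8 ± 3.48) and 2i+LIF LP (10.1 ± 5.35) were the highest, followed by LIF HP (7.10 ± 1.31), LIF LP (4.97 ± 1.81) and PO (4.16 ± 3.28). Sycp1 did not pass the test among the cultured groups (edgeR, adjusted p = 0.159).

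Sycp3 (ENSMUSG00000020059, chromosome 10, 88459569 to 88473236, plus strand) encodes a protein of the chromosome axis on which synapsis is built. It overlaps Chpt1 on the opposite strand, and the strand setting of the counting is not given in the sources used here, so reads of the pair may not be told apart. PO had 21.6, 7.06 and 8.48 CPM. The 3 LIF LP libraries were close together, at 48.5, 49.8 and 50.5 CPM, and all above the LP libraries of the other media, at 16.4 to 39.1 CPM. The widest spread was in 2i+LIF HP, with 5.11, 69.2 and 96.8 CPM, so the group with the highest mean (57.0 ± 47.0 CPM) held both the lowest and the highest library of all 21. LIF HP had 29.9, 51.1 and 60.8 CPM and CH+LIF HP had 24.6, 22.9 and 18.3 CPM, without overlap. The remaining means were 49.6 ± 1.03 CPM in LIF LP, 47.3 ± 15.8 in LIF HP, 25.6 ± 7.57 in CH+LIF LP, 24.3 ± 12.8 in 2i+LIF LP, 21.9 ± 3.29 in CH+LIF HP and 12.4 ± 8.04 in PO. Sycp3 did not pass the test among the cultured groups (edgeR, adjusted p = 0.265).

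Hormad1 (ENSMUSG00000028109, chromosome 3, 95559677 to 95587671, plus strand) encodes a protein of unsynapsed meiotic chromosome axes. It had its highest means in CH+LIF, with 27.6, 25.4 and 15.2 CPM at LP and 18.8, 21.5 and 26.7 CPM at HP. PO had 2.64, 4.45 and 6.48 CPM and 2i+LIF HP had 6.51, 12.5 and 4.79 CPM, so Hormad1 was low in the group where Dazl, Stk31 and Tex101 were highest. The 2i+LIF LP libraries had 0, 12.9 and 32.4 CPM, and the 0 came from replicate 1, the library with the large Gm42418 share. LIF had 20.4, 6.64 and 23.6 CPM at LP and 9.79, 14.8 and 6.18 CPM at HP. Means ran from 22.7 ± 6.63 CPM in CH+LIF LP, 22.3 ± 3.99 in CH+LIF HP, 16.9 ± 8.99 in LIF LP, 15.1 ± 16.3 in 2i+LIF LP, 10.2 ± 4.32 in LIF HP and 7.95 ± 4.07 in 2i+LIF HP to 4.52 ± 1.92 in PO, and all neighbours overlapped. Hormad1 did not pass the test among the cultured groups (edgeR, adjusted p = 0.471).

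Slc25a31 (ENSMUSG00000069041, chromosome 3, 40708855 to 40726096, plus strand) encodes the ADP/ATP carrier of germ cell mitochondria. PO had 0, 4 and 3 counts, or 0, 1.05 and 0.748 CPM, and every library of the 6 cultured groups was above these, from 1.94 CPM upward. The highest values, 10.2, 12.0 and 6.71 CPM, were those of 2i+LIF HP, followed by 11.0, 4.29 and 9.14 CPM for CH+LIF HP. The other groups had 2.81, 3.44 and 7.83 CPM (2i+LIF LP), 6.18, 2.46 and 5.15 CPM (LIF HP), 2.75, 2.66 and 2.40 CPM (LIF LP) and 1.94, 3.03 and 2.28 CPM (CH+LIF LP). In the order of means, 9.64 ± 2.69 CPM in 2i+LIF HP, 8.15 ± 3.47 in CH+LIF HP, 4.69 ± 2.73 in 2i+LIF LP, 4.60 ± 1.92 in LIF HP, 2.6 ± 0.180 in LIF LP, 2.41 ± 0.557 in CH+LIF LP and 0.598 ± 0.539 in PO, the only step without overlap was the last. Slc25a31 did not pass the test among the cultured groups (edgeR, adjusted p = 0.141).

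Tex101 (ENSMUSG00000062773, chromosome 7, 24668007 to 24676675, minus strand) encodes a surface glycoprotein of germ cells that is needed for sperm fertility. It was detected at 1 to 3 counts per library in PO, or 0.528, 0.784 and 0.748 CPM. The 3 libraries of 2i+LIF HP had 14, 15 and 16 counts, or 6.51, 8.18 and 15.3 CPM, and those of CH+LIF HP had 4.54, 7.63 and 3.81 CPM. The 3 libraries of LIF HP had 2, 1 and 0 counts, or 1.03, 0.616 and 0 CPM, and no LP library exceeded 2.66 CPM. So 2 of the 3 HP groups stood apart from every LP and PO library, and the third did not. The means were 10.0 ± 4.69 CPM in 2i+LIF HP, 5.33 ± 2.03 in CH+LIF HP, 1.23 ± 1.24 in LIF LP, 1.09 ± 1.08 in 2i+LIF LP, 0.687 ± 0.139 in PO, 0.646 ± 1.12 in CH+LIF LP and 0.549 ± 0.519 in LIF HP, with no overlap between the second and the third. Tex101 differed among the 6 cultured groups (edgeR, adjusted p = 0.0115), and the call was lost without 2i+LIF HP replicate 3 (adjusted p = 0.0628).

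Among the 6 cultured groups as a whole, which share a run, Dazl, Stk31 and Tex101 were the 3 members called, of 10 members and 8 tested, against 13.1% of all tested genes. Tex101 passed the filter only through 2i+LIF HP, so its call is not read against that share, which leaves Dazl and Stk31. The members were chosen with earlier results of these data known, so the shares given here and below describe the list and do not test it. All 3 had their highest mean in 2i+LIF HP. DESeq2 called these 3 and Slc25a31. Without the 2 libraries of large Gm42418 or mitochondrial share, the 3 edgeR calls were unchanged, with adjusted p of 0.000952 for Dazl, 0.00186 for Stk31 and 0.00445 for Tex101.

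At LP, no member was called between any pair of media by edgeR or by DESeq2. The background was 0% of tested genes for CH+LIF against 2i+LIF, 0.489% for LIF against 2i+LIF and 0.047% for LIF against CH+LIF. At an unadjusted p under 0.05, the counts were 1 of 8 tested members (Sycp1, lower in CH+LIF than in 2i+LIF), 0 and 0, beside 8.93%, 11.9% and 4.71% of all tested genes. The libraries of Sycp1 in CH+LIF LP also lay below those of 2i+LIF LP without overlap, against 5.94% of tested genes, with a log2 fold change of -1.82 ± 0.65 (SE) and an edgeR adjusted p of 0.441. The 3 LIF LP libraries of Sycp3 lay above those of 2i+LIF LP and CH+LIF LP, against 8.37% and 7.16% of tested genes, with log2 fold changes of 1.03 ± 0.59 and 0.95 ± 0.59 that did not pass the test (edgeR, adjusted p of 0.509 and 1). Those of Slc25a31 lay the other way in LIF LP, below 2i+LIF LP without overlap, against 7.19% of tested genes (log2 fold change -0.84 ± 0.70, edgeR adjusted p = 0.696). Tested jointly across the 3 media at LP, no member was called by edgeR, against 0.376% of genes.

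At HP, Stk31 and Tex101 were lower in the libraries labelled LIF than in those labelled 2i+LIF. Stk31 fell by 1.90 on the log2 scale (SE 0.50, edgeR adjusted p = 0.0330), with 9.79, 12.3 and 7.21 CPM against 20.9, 43.6 and 47.9 CPM. Tex101 fell by 3.81 (SE 1.04, edgeR adjusted p = 0.0379). Its pooled share, without TMM scaling, was 0.0572 of that in 2i+LIF HP, from 3 against 45 counts. The exact 95% interval of 0.0114 to 0.178 covers counting error alone. Stk31 and Tex101 were 2 of 10 members, 8 tested, against 1.68% of all tested genes called lower and 3.78% called in either direction. The filter favours the Tex101 call, since the gene was tested only through its level in 2i+LIF HP. That leaves Stk31 as the 1 call beside these shares, as a description only. DESeq2 called these 2 and Dazl. Libraries did not overlap for 5 members, all lower in LIF HP (Dazl, Stk31, Asz1, Slc25a31 and Tex101), against 13.5% of tested genes. Without Asz1, which was not tested, and Tex101, these are Dazl, Stk31 and Slc25a31. Dazl had a log2 fold change of -1.63 ± 0.51 with an edgeR adjusted p of 0.071, and Asz1 had 1 count in LIF HP against 22 in 2i+LIF HP. Ddx4, in contrast, had a log2 fold change of 0.95 ± 0.81 in LIF HP (edgeR, adjusted p = 0.546). The Stk31 call was lost without replicate 2 or 3 of 2i+LIF HP or without any 1 replicate of LIF HP (adjusted p of 0.0815 to 0.136). The Tex101 call was lost without any 1 replicate of 2i+LIF HP, CH+LIF HP or LIF HP and without LIF LP replicate 1 (adjusted p of 0.0502 to 0.156).

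Between the other pairs of media at HP no member was called by edgeR or DESeq2. For CH+LIF against 2i+LIF the background was 2.02% by adjusted p. Dazl and Sycp3 were at an unadjusted p under 0.05, as were 11.6% of tested genes, with log2 fold changes of -1.06 ± 0.50 and -1.35 ± 0.60 (edgeR, adjusted p of 0.41 and 0.354). The libraries of Dazl lay lower in CH+LIF HP without overlap, against 9.45% of tested genes. Those of Hormad1 lay higher without overlap, at 18.8 to 26.7 against 4.79 to 12.5 CPM and beside 10.3% of tested genes, with a log2 fold change of 1.45 ± 0.71 (edgeR adjusted p = 0.437). For LIF against CH+LIF the background was 1.47% by adjusted p. Stk31 and Tex101 were at an unadjusted p under 0.05, as were 14.7% of tested genes, with log2 fold changes of -1.34 ± 0.50 and -2.96 ± 1.05 (edgeR, adjusted p of 0.196 and 0.173). In this pair the libraries of Sycp1, Stk31, Hormad1 and Tex101 lay lower in LIF HP without overlap, against 14.6% of tested genes, and those of Sycp3 lay higher, against 15.3%. Tested jointly across the 3 media at HP, no member was called by edgeR, against 5.12% of genes, and the nearest were Stk31 (adjusted p = 0.0608), Tex101 (0.0678) and Dazl (0.106).

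Between LP and HP of the same medium, Dazl, Stk31 and Tex101 lay higher at HP without overlap in both 2i+LIF and CH+LIF, and no member did so in LIF. No HP against LP contrast called a member in edgeR, and DESeq2 called Dazl and Tex101 in 2i+LIF and none in the others. In 2i+LIF, the 4 members without overlap were Dazl, Stk31, Asz1 and Tex101, all higher at HP, against 8.43% of tested genes. Asz1 is not among the tested genes and Tex101 is among them only through 2i+LIF HP, which leaves Dazl and Stk31 beside that share, as a description only. Their log2 fold changes were 1.63 ± 0.51 for Dazl (edgeR, adjusted p = 0.0726), 1.26 ± 0.48 for Stk31 (0.16) and 2.97 ± 0.92 for Tex101 (0.0708), and these 3 were at an unadjusted p under 0.05, as were 17% of tested genes. By adjusted p, 3.67% of tested genes were called there.

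In CH+LIF, 6 of 10 members lay higher at HP without overlap, against 7.95% of tested genes: Dazl, Ddx4, Sycp1, Stk31, Slc25a31 and Tex101. The log2 fold changes were 1.29 ± 0.51 for Dazl, 1.49 ± 0.83 for Ddx4, 1.95 ± 0.65 for Sycp1, 1.39 ± 0.50 for Stk31, 1.72 ± 0.70 for Slc25a31 and 2.75 ± 1.01 for Tex101. None passed edgeR's test, whose smallest adjusted p among members was 0.616 in a contrast with 0.0094% of genes called, and 5 members (the same without Ddx4) were at an unadjusted p under 0.05, as were 5.37% of genes. In LIF, no member's libraries were free of overlap, against 20.1% of tested genes higher and 19.3% lower, and no member reached an unadjusted p under 0.05, against 26.3% of genes. By adjusted p, 9.96% of genes were called there. The median log2 fold change of the 8 tested members was 1.12 in 2i+LIF, 1.44 in CH+LIF and 0.22 in LIF, beside medians of all tested genes of 0.0069, -0.0013 and 0.0077. Over the 7 tested members without Tex101 it was 1.04, 1.39 and 0.41. Whether the HP against LP difference itself differed between media was tested by interaction terms. No member passed (edgeR), against 0.0188% of genes for CH+LIF less 2i+LIF, 0.15% for LIF less 2i+LIF and 0.423% for LIF less CH+LIF. At an unadjusted p under 0.05 the members were Sycp1 in the first and Tex101 in each of the other 2, so 1 of 8 each time, beside 6.49%, 11% and 11.7% of genes.

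Against PO, members were higher in each cultured group where the test called them, and none was called lower. The 6 contrasts share the same 3 PO libraries, and the run cannot be told apart from PO. In 2i+LIF HP, 4 of 10 members rose, with 8 tested and a background of 5.8% of genes called higher, against which the Tex101 call is again not read. Dazl rose by a log2 fold change of 3.08 (SE 0.54, edgeR adjusted p = 0.000633), Slc25a31 by 3.72 (SE 0.74, 0.0021), Tex101 by 3.67 (SE 0.93, 0.012) and Sycp3 by 2.23 (SE 0.61, 0.0202). The Dazl and Slc25a31 calls held under all 28 alternatives. The Tex101 call was lost without PO replicate 2 or 3 or 2i+LIF HP replicate 3 (adjusted p of 0.0508 to 0.0832), and that of Sycp3 without the same 3 libraries or 2i+LIF HP replicate 2 (0.0626 to 0.174).

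In CH+LIF HP, 3 members rose, against 3.36% of genes. Slc25a31 rose by 3.45 (SE 0.75, edgeR adjusted p = 0.00775), a call kept under all 28 alternatives, Dazl by 2.02 (SE 0.52, 0.021) and Ddx4 by 2.90 (SE 0.87, 0.0458). Without PO replicate 1 or 3, or CH+LIF HP replicate 1 or 2, the Dazl call was lost (adjusted p of 0.0546 to 0.0825). The Ddx4 call was lost on leaving out any of 14 of the 21 libraries (adjusted p of 0.0502 to 0.145), among them PO replicates 1 and 2 and every library of CH+LIF HP, LIF HP and LIF LP, 2i+LIF LP replicate 2, CH+LIF LP replicate 3 and 2i+LIF HP replicate 2. In LIF HP, 3 members rose, against 7.1% of genes. Ddx4 rose by 3.13 (SE 0.87, edgeR adjusted p = 0.02), Slc25a31 by 2.65 (SE 0.77, 0.0251) and Sycp3 by 1.97 (SE 0.61, 0.035). Each of these 3 calls was lost without 4 of the 21 libraries: for Ddx4 PO replicates 1 and 2 and LIF HP replicates 2 and 3 (adjusted p of 0.0568 to 0.0761), for Slc25a31 PO replicates 1 and 3 and LIF HP replicates 1 and 3 (0.0618 to 0.0990), and for Sycp3 PO replicates 2 and 3 and LIF HP replicates 2 and 3 (0.106 to 0.117).

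At LP, 1 member was called higher than PO in 2i+LIF, 1 in CH+LIF and 2 in LIF, and edgeR called no member between LP and HP. Slc25a31 rose in 2i+LIF LP by a log2 fold change of 2.68 (SE 0.75, edgeR adjusted p = 0.0370), 1 member against 2.79% of genes, and the call was lost without any PO replicate or 2i+LIF LP replicate 3 (0.0523 to 0.148). Hormad1 rose in CH+LIF LP by 2.28 (SE 0.71, edgeR adjusted p = 0.0458), 1 member against 4.24% of genes. That call was lost on leaving out any of 14 libraries, namely every library of PO, CH+LIF LP, CH+LIF HP and LIF HP and replicates 1 and 3 of LIF LP (0.0521 to 0.134). In LIF LP, Ddx4 rose by 2.64 (SE 0.87, edgeR adjusted p = 0.0457) and Sycp3 by 2.05 (SE 0.61, 0.0270), 2 members against 5.84% of genes. The Sycp3 call was lost without PO replicate 2 or 3 or any LIF LP replicate (0.0572 to 0.106). The Ddx4 call was lost on leaving out any of 13 libraries, namely PO replicates 1 and 2, all of LIF LP, CH+LIF HP and LIF HP, CH+LIF LP replicate 3 and 2i+LIF HP replicate 2 (0.0528 to 0.161). Stk31 was the 1 member with log2 fold changes below 0 in all LP groups, at -0.21 ± 0.48, -0.90 ± 0.49 and -0.89 ± 0.49, none past the test (edgeR, adjusted p of 0.839, 0.269 and 0.245).

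Without the 2 libraries of large Gm42418 or mitochondrial share, one of them in PO, 2i+LIF HP had 6 members called higher than PO (Sycp1 and Stk31 were added), CH+LIF HP had 5 (Sycp1 and Hormad1 were added) and 2i+LIF LP had 2 (Hormad1 was added). Ddx4 in LIF LP (adjusted p = 0.0507) and Slc25a31 in LIF HP (0.0521) were then no longer called by edgeR. Additions in other groups are not listed. The share of all tested genes called in this refit is not given here, so its counts are not read against a background.

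**Figure D3:**
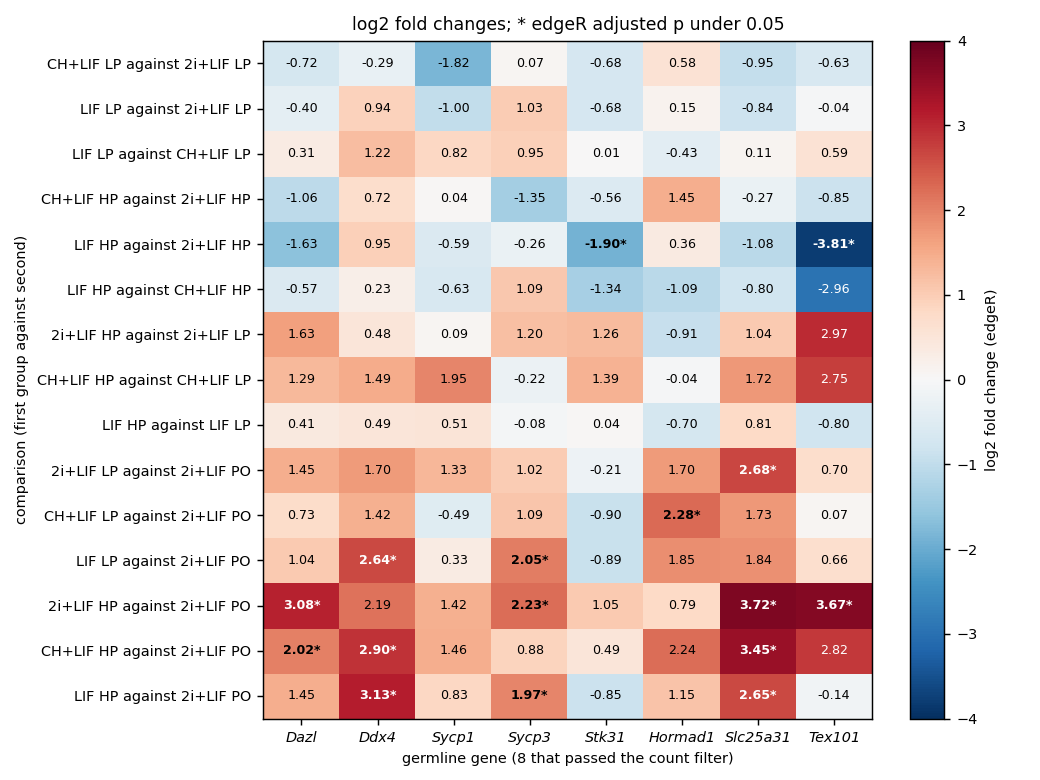
edgeR log2 fold changes of the 8 tested members (columns) in 15 comparisons (rows, first group against second); red is higher in the first group, blue lower, and a star marks an adjusted p under 0.05. The 6 lowest rows share the PO libraries, and Tex101 ran from -3.81 in LIF HP against 2i+LIF HP to 3.67 in 2i+LIF HP against PO.

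A further list of 44 germline genes held members of the same programme, such as piRNA factors, meiotic axis and recombination genes and germ cell transcription factors, of which 32 were tested and Spo11 had no counts. As with the members, most calls in this list were against PO. Of 44 genes, at LP 7 were called higher and 0 lower in 2i+LIF, 4 and 2 in CH+LIF, and 6 and 1 in LIF. At HP the counts were 7 and 0 for 2i+LIF, 9 and 0 for CH+LIF, and 7 and 1 for LIF. Of all tested genes, 2.79%, 4.24% and 5.84% were called higher and 2.27%, 4.07% and 6.11% lower in the 3 LP contrasts, in the same order. In the HP contrasts the shares were 5.8%, 3.36% and 7.1% higher and 4.79%, 2.45% and 5.17% lower. The median log2 fold changes of the tested genes were 0.27 to 0.78 in these contrasts, beside medians of all genes of -0.10 to -0.05. Taf7l, a germ cell TFIID subunit, had no counts in PO and 48.7 ± 36.8 CPM in 2i+LIF HP. Tuba3b, a testis tubulin, rose from 1.37 ± 0.278 CPM in PO to 30.9 ± 13.0 CPM in CH+LIF HP (edgeR, log2 fold change 4.38, SE 0.53, adjusted p = 1.88e-05), though near-identical tubulin copies make its count uncertain.

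Among the cultured groups, 11 of the 44 genes, 32 of them tested, differed by edgeR, beside the 13.1% of all tested genes. Stra8, which drives entry into meiosis, was highest in LIF HP, where Dazl and Tex101 were not. It had 255 ± 98.5 CPM there against 9.14 ± 2.96 CPM in CH+LIF HP (edgeR, log2 fold change 4.82, SE 0.99, adjusted p = 0.0127). Majin, which ties telomeres to the nuclear envelope in meiosis, had 4.91 ± 0.774 CPM in LIF HP against 40.1 ± 11.9 CPM in CH+LIF HP (edgeR, log2 fold change -2.98, SE 0.48, adjusted p = 0.00148). In LIF HP against 2i+LIF HP, Nxf2, a germ cell RNA export factor (log2 fold change ± SE of -3.79 ± 0.96, edgeR adjusted p = 0.0275), Majin (-1.99 ± 0.49, 0.0214) and Tex15, a factor of transposon silencing (-2.45 ± 0.66, 0.0357), fell as Stk31 and Tex101 did, and Hsf2bp, a meiotic recombination factor, rose (1.28 ± 0.36, 0.043), which is 4 of 32 tested genes beside 3.78% of all tested genes. In LIF HP against LIF LP, where no member was called, Fkbp6, Rec8 and Stra8 rose and Rnf17, Majin and Piwil2 fell by edgeR, 6 of 32 tested genes beside 9.96% of all. Hsf2bp, and Rec8, Stra8 and Piwil2 in the last comparison, were chosen for naming after their values were seen.

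**Figure D4:**
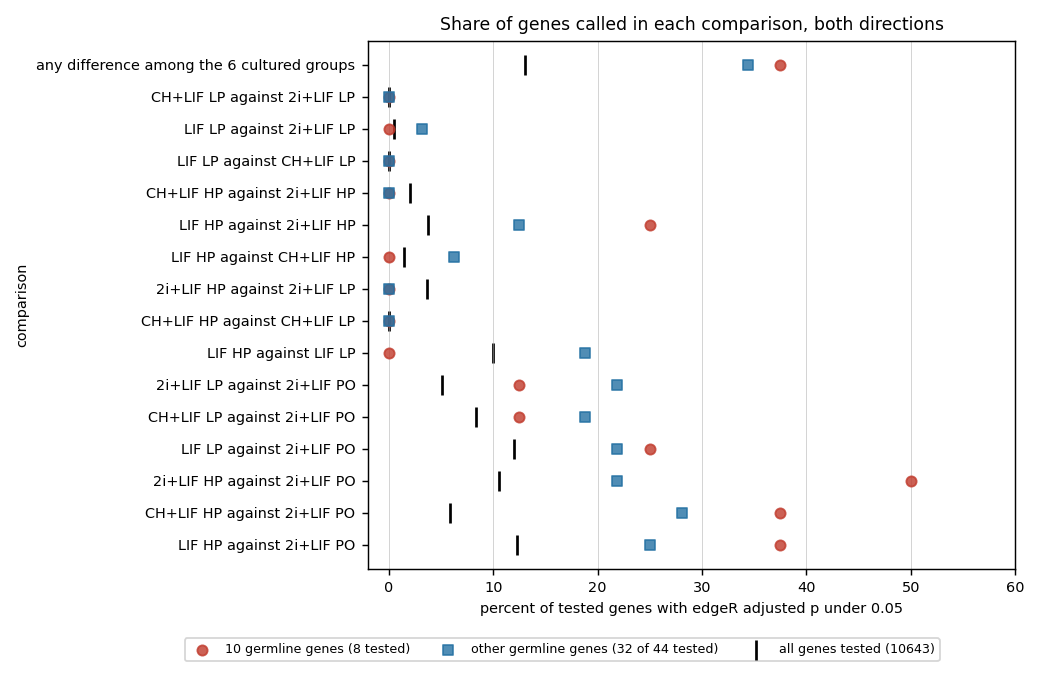
Percent of tested genes called by edgeR in each comparison, in either direction, for the members (circles, 8 of 10 tested), the 44 other germline genes (squares, 32 tested) and all 10643 tested genes (black ticks). The members' share was 50% in 2i+LIF HP against PO and 0% in all 3 HP against LP contrasts. Tex101 passed the filter only through its high group, and the list was chosen with earlier results known. The shares therefore describe and do not test the list.

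The repressors of this gene class were measured in the same libraries. Dnmt3l, the cofactor of de novo methylation, had 6.96 ± 2.86 CPM in 2i+LIF HP against 99.8 ± 71.8 CPM in 2i+LIF LP (edgeR, log2 fold change -3.80, SE 0.64, adjusted p = 0.000831) and 89.1 ± 16.9 CPM in CH+LIF HP. It was lower still in LIF HP, at 1.06 ± 1.35 CPM against 111 ± 24.5 CPM in LIF LP (-6.37, SE 0.79, edgeR adjusted p = 1.30e-05). In neither of these HP against LP pairs did edgeR call a member. Uhrf2, a relative of the maintenance factor UHRF1, rose in 2i+LIF HP against LP (3.24, SE 0.45, edgeR adjusted p = 0.00013), and Tet2, which oxidises methylated cytosine, fell (-1.72, SE 0.49, 0.0464), while Dnmt1, at 127 ± 56.0 against 256 ± 211 CPM, did not pass that test. These were 3 of 10 methylation genes, beside 3.67% of all tested genes. Against PO, Dnmt3a, a de novo methyltransferase, was called higher in 2i+LIF HP (1.72, SE 0.42, edgeR adjusted p = 0.0103), as was Uhrf2 (1.58, SE 0.41, 0.0145), and Dnmt3l (-2.66, SE 0.62, 0.00722) and Tet2 (-1.91, SE 0.49, 0.0138) were called lower. Of 17 genes of PRC1.6 and its partners, 1 was called in 2i+LIF HP against LP, Yaf2 (log2 fold change 1.79, SE 0.44, edgeR adjusted p = 0.0183), a share near the 3.67% of all tested genes. Against PO, 2 to 3 of the 17 were called lower in each cultured group, beside 2.27% to 6.11% of all tested genes, and Yaf2 was called higher in 2i+LIF HP and LIF HP. Max and Wdr5 were most often called, always lower, with Max at 124 ± 40.8 CPM in PO and 25 ± 21.6 CPM in 2i+LIF HP (-2.26, SE 0.48, edgeR adjusted p = 0.00361). Whether any of these repressors had a part in the members' levels was not tested.

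Markers of other cell states were summed in each library. Pluripotency markers (8 genes, all with counts in every group) summed to 1306 to 3497 CPM, so the defining genes of the labelled cell type were present, and Sox2 had 408 to 870 CPM as group means. Of the 8, 5 were called lower in 2i+LIF HP than in PO by edgeR, namely Nanog (log2 fold change -1.41), Zfp42 (-2.40), Esrrb (-1.37), Tfcp2l1 (-1.34) and Fgf4 (-2.11), beside 4.79% of all tested genes. In the other cultured groups 2 to 4 were called lower than PO, beside 2.27% to 6.11% of all tested genes, and Pou5f1 was called higher in LIF HP (1.39). These are the contrasts in which members were called higher. Two-cell-like markers had their highest sums in 2i+LIF HP, and none of the 6 had enough counts to be tested. There 5 of 6 had counts and summed to 9.58 to 13.0 CPM, Zscan4f being at 0. PO had none, and the sums were 0 to 3.86 CPM at LP, 1.43 to 7.79 CPM in CH+LIF HP and 0 to 3.70 CPM in LIF HP. Primitive endoderm markers also reached their highest sum in 2i+LIF HP, at 4.18 to 24.5 CPM against at most 8.39 CPM elsewhere, with Gata4 and Sox7 at 0.

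Markers of primordial germ cells did not follow a single order. Their sum was 189 to 274 CPM in 2i+LIF HP, 208 to 243 CPM in LIF HP, 197 to 204 CPM in PO and 74.6 to 184 CPM in the other groups, with Nanos2 at 0 outside PO. Within the list, Dppa3, shared by naive cells, primordial germ cells and oocytes, had 84.4 ± 53.9 CPM in 2i+LIF HP against 2.43 ± 3.36 CPM in 2i+LIF LP (edgeR, log2 fold change 5.25, adjusted p = 0.00198). No library outside 2i+LIF HP exceeded 6.31 CPM, so Dppa3, like Tex101, passed the filter through the group where it was high. Nanos3 rose in 2i+LIF HP against LP (2.92, edgeR adjusted p = 0.0329), and Prdm1, needed to specify germ cells, fell (-1.83, edgeR adjusted p = 0.015). Fibroblast markers summed to 3.83 to 36.9 CPM and those of differentiated lineages to 52.2 to 283 CPM, and neither sum was highest in 2i+LIF HP. Within the second list, however, T, the mesoderm factor brachyury, was highest in 2i+LIF HP, like 7 of the 10 members, as its CPM was 13.5, 36.5 and 17.3 across the 3 libraries against at most 3.01 elsewhere. It was called higher there than in 2i+LIF LP (edgeR, log2 fold change 4.21, SE 1.03, adjusted p = 0.0236), and Sox1, of neural precursors, was called lower (-4.05, SE 1.02, 0.0220). Other genes of this list did not follow T. Eomes and Nes had their lowest group means in 2i+LIF HP, at 5.95 ± 2.70 and 6.45 ± 5.77 CPM. Their means in 2i+LIF LP were 18.6 ± 10.4 and 13.2 ± 8.02 CPM. Tubb3 had 76.0 ± 61.3 CPM at HP against 141.5 ± 70.7 CPM at LP of that medium. None of these passed the HP against LP test (edgeR, adjusted p of 0.112 for Eomes, 0.503 for Nes and 0.395 for Tubb3). In bulk RNA, more cells of a kind and more RNA per cell cannot be told apart, and the part of these markers in the members' levels was not tested.

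Correlations among the members varied widely. Over the 21 libraries, which share depth and group differences, Pearson's r of log2 CPM among the 28 pairs of tested members ran from -0.257 to 0.815 with a median of 0.347, and 9 pairs were above 0.5. The highest was Dazl with Slc25a31. The genes most like Dazl among all tested genes were Xlr4b (r = 0.832), Xlr (0.818) and Slc25a31, and those most like Slc25a31 were Xlr4c (0.830), Xlr4b (0.817) and Raly (0.817). The Xlr genes are X-linked near-identical copies, so their counts are uncertain. For Tex101 they were Serpina3m (0.862), Ube2dnl1 (0.833) and Gstm3 (0.830), and for Stk31 Cachd1 (0.854), Treml2 (0.820) and Dsg2 (0.812). The nearest genes of the meiotic members were Ppip5k1 (0.821), Ppp2r3a (0.778) and Magt1 (0.760) for Sycp1, Vamp7 (0.854), Nudt4 (0.830) and Zfp120 (0.794) for Sycp3 and Nradd (0.895), Cdc20 (0.878) and Serinc3 (0.874) for Hormad1. For Ddx4 they were Gas2 (0.771), Ociad1 (0.752) and Hoxa10 (0.748). These values describe 21 libraries in 7 groups and carry no test, and no value for pairs of all tested genes stands beside them.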

How the data were processed

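Messenger RNA of 21 mouse embryonic stem cell libraries (125 ng total RNA each) was sequenced. The authors deposited raw read counts per gene. The submitters' processing notes name bcl2fastq, STAR 2.6.0a, HTSeq and mm10; the annotation, strand setting and filters are not given in the sources used here. The 31053 identifiers were matched to GENCODE M21 (31011 found). Closing entries that name no gene were left out; genes held 47.4% to 62.0% of all entries.

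All libraries entered 1 fit (edgeR 4.0.16 in R 4.3.3, quasi-likelihood, TMM, filterByExpr with a minimum count of 10, 14 residual degrees of freedom). The SE is the log2 fold change divided by the root of F. No 2 libraries agreed within sampling noise (lowest chi-square per degree of freedom 4.82 over 21 replicate pairs). Alternatives included DESeq2 1.42.0, DESeq2 size factors, all genes with a count, only the groups compared, a replicate block and leaving out each library. Leaving out both libraries that stood apart was chosen after seeing the data. In 2i+LIF LP against PO the deviations of same-numbered libraries correlated at 0.397, 0.345 and 0.179. In every other comparison made between groups at least 1 correlation was 0.1 or lower. Replicate 1 stood apart in both 2i+LIF LP and PO, so these correlations cannot show that replicate numbers pair libraries. The test was checked on simulated counts.

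Members and lists were chosen with earlier results of these data known. All 10 members are named; from other lists, genes past the test (at most the 3 smallest adjusted p per comparison) or defining markers; and for each tested member the 3 genes most correlated in log2 CPM (prior count 2). Promoter letters come from RefSeq.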

Additional observations from a re-analysis of the deposited data

How the results depend on the processing

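Of 19 calls of single members, 4 held under every alternative tried (Stk31 among the cultured groups, Dazl and Slc25a31 in 2i+LIF HP against PO, and Slc25a31 in CH+LIF HP against PO), and over 530 alternatives 98 ended a call and 0 turned a direction. Testing all genes with at least 1 count gave 5 members among the 6 cultured groups (Sycp3 and Asz1 added to 3), 1 in 2i+LIF HP against LP (0) and 2 in 2i+LIF LP against PO (1). Fitting only the groups compared gave 2 in LIF HP against CH+LIF HP (0), 0 in 2i+LIF LP against PO (1; Slc25a31 was not tested there), 1 in LIF LP against PO (2) and 1 in LIF HP against PO (3; Slc25a31 was not tested there either). DESeq2 gave 2 in 2i+LIF HP against LP (0) and 5 in CH+LIF HP against PO (3). Without both libraries that stood apart, 2i+LIF LP against PO gave 2 and CH+LIF HP against PO gave 5. The other 101 of 112 such counts were within 1.5 times the main one. The cause of the 11 changes was not tested. Shares of all genes called under each alternative are not given here, so these counts are not read against a background. Among single calls, fitting only the groups compared ended those of Sycp3 in 2i+LIF HP (adjusted p = 0.144) and of Ddx4 in LIF LP (0.106), CH+LIF HP (0.0881) and LIF HP (0.0523) against PO, and testing all genes ended those of Slc25a31 in 2i+LIF LP (0.0651) and LIF HP (0.0561) against PO.

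Leaving out 1 library at a time gave 2 to 4 members among the cultured groups, 0 to 1 for CH+LIF and 0 to 3 for LIF, each against 2i+LIF at HP, 0 to 2 in 2i+LIF HP against LP, and 0 to 0 in the other 6 contrasts among cultured groups. Against PO it gave 0 to 2 in 2i+LIF LP, 0 to 1 in CH+LIF LP, 0 to 3 in LIF LP, 2 to 5 in 2i+LIF HP, 1 to 5 in CH+LIF HP and 0 to 4 in LIF HP.

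With the replicate number as a block, the counts were 3 among the cultured groups, 2 in LIF HP against 2i+LIF HP, and against PO 1, 1 and 2 in 2i+LIF, CH+LIF and LIF at LP and 4 each in 2i+LIF, CH+LIF and LIF at HP; all others were 0. In 2i+LIF LP against PO, the comparison with the correlated deviations, the block changed no call. Whether libraries share more than a number was not settled, and no count moved by over 1.5 times.

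Depth limits the low members. In a library, 3 counts stand for 0.793 to 2.65 CPM, and Asz1, Mael, Tex101, Ddx4 and Slc25a31 were near that level in several groups, so differences below it were not detectable there.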
